A study of Rattus norvegicus with 6 samples.

Results

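The genes described here belong to the BCL2 family, whose proteins decide at the outer mitochondrial membrane whether a cell lives or dies. A list of 10 such genes was matched to the gene symbols of the deposited counts, and 8 were found among the 12121 genes of the tables. They are the guardians Bcl2, Bcl2l1 and Bcl2l2, the effectors Bax and Bak1, and the BH3-only genes Bcl2l11, Bmf and Bid. Mcl1 and Bbc3 were not analysed here. C6 is an established glioma line of the rat, and AQP1 lets water through the cell membrane. RNA-seq was done on 3 libraries of C6 cells that overexpress Aqp1 (C6-AQP1) and on 3 libraries of C6 cells without overexpression (C6 control), and no drug or stress treatment is named for either group. According to the methods, the AQP1 sequence was placed behind a CMV promoter in a vector that also carries copGFP and puromycin resistance. The sources used here do not state if the control cells that were sequenced held the empty vector, if the C6-AQP1 line is a single clone, or if replicate libraries stem from separate cultures. The p-values therefore cover only library-to-library spread, which may be technical.

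In healthy cells the guardians hold the effectors BAX and BAK inactive. When a cell is stressed or loses growth factor signals, BH3-only proteins bind the guardians, and some of them also activate the effectors directly. Active BAX and BAK then open the outer membrane, cytochrome c leaks into the cytosol, and the apoptosome switches on the caspases. Gliomas are known for resisting this route, and the balance of guardians against BH3-only proteins is commonly described as the threshold for death. Transcript counts give the RNA side of this balance and not the amount, modification or location of the proteins.

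Libraries held between 19054244 and 52725870 expected counts, and replicate 1 was the shallowest of both groups. Aqp1, the check of the labels, had 1058 ± 5.81 normalized CPM in C6-AQP1 and 349 ± 2.48 in C6 control cells (SD, n = 3). Normalized CPM are counts scaled to library size with TMM factors. They are not divided by transcript length, so they compare libraries for a given gene and not genes with each other. Of the 8 listed C6 and astrocyte markers, 5 were measured and all 5 rose, while Sox9, Aldh1l1 and Fabp7 were not analysed here. Gfap moved most, from 14.0 ± 0.0652 to 167 ± 6.72 CPM (SD, n = 3), and Slc1a3 had a log2 fold change of 1.13. Smaller log2 changes of 0.70, 0.66 and 0.26 were seen for Vim, S100b and Nes. The summed level of 5 measured neuronal markers was 124 to 127 CPM in the control and 309 to 315 CPM in the C6-AQP1 libraries. Most of this sum was Map2, with 81.8 and 254 CPM on average. The list went both ways, with 3 rises, a fall of Syn1 (log2 fold change -1.54) and Tubb3, which did not pass. That of 7 measured oligodendrocyte markers was 1199 to 1235 and 1981 to 2077 CPM. Of the 8 microglial markers only P2ry12 was measured, with a range of 2.84 to 3.07 CPM in control and 6.56 to 7.09 CPM in C6-AQP1 libraries. Of the 8 endothelial markers only Tek was measured, with 2.19 to 3.14 and 7.94 to 8.55 CPM. These markers moved with the groups, and their part in the results below was not tested. In such bulk samples, fewer cells that express a gene and less RNA per cell cannot be told apart.

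To ask how the life and death genes differed after AQP1 overexpression, each gene was read from a comparison fitted over all 12121 genes. The 3 BH3-only genes among the 8 rose and both effectors fell, while the guardians went separate ways. Bad, a BH3-only gene outside the 8, fell, as described below. Of the 8 genes, 5 rose, 3 fell and none missed an adjusted p of 0.05 (edgeR's quasi-likelihood test, Benjamini-Hochberg adjustment). Among all genes 81.5% passed this bar, 40.8% upward and 40.7% downward, so passing it sets no BCL2 family gene apart. The C6-AQP1 and control libraries did not overlap for any of the 8 genes, which also held for 82.5% of all genes. With a fold change above 2 added, as in the DEGs of the study's methods, 2 of the 8 genes were called, Bcl2l11 and Bmf, both upward. DEGs made up 14.1% of all genes, 9.74% upward and 4.35% downward. The median log2 fold change was 0.34 over the 8 genes and 0.0010 over all genes.

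**Figure D1:**
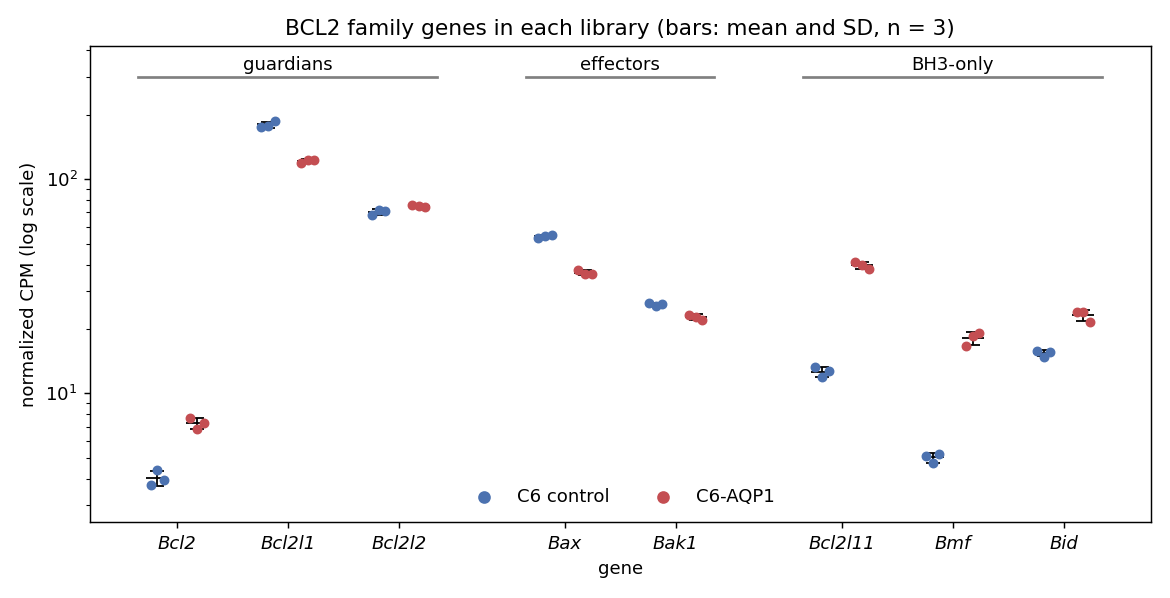
Normalized CPM of the 8 BCL2 family genes on a logarithmic axis. Points are libraries, black bars show mean and SD (n = 3), and the classes are marked above. The 3 BH3-only genes lie higher and both effectors lower in C6-AQP1, and Bcl2l1 falls from 180.4 to 122 CPM while Bcl2 rises from 4.01 to 7.23 CPM.

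The largest of the 8 changes were those of the BH3-only genes Bmf and Bcl2l11. Bcl2l11 encodes BIM, which binds all guardians tightly, can activate BAX and BAK, and is known as a target of FOXO factors when growth factor signalling drops. The 3 control libraries had 13.2, 11.9 and 12.7 normalized CPM, and the C6-AQP1 libraries had 41.1, 39.8 and 38.1. All C6-AQP1 libraries were thus high, and the lowest of them lay 2.88-fold above the highest control library. The mean went from 12.6 ± 0.646 to 39.7 ± 1.52 CPM (SD, n = 3). Its log2 fold change was 1.66 (standard error, SE, 0.05 and adjusted p = 2.29e-17 by edgeR), or 3.16-fold, and 95.6% of all genes had a lower log2 fold change. BIM is made in several splice forms that differ in potency, and the counts per gene do not separate them.

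Bmf encodes a BH3-only protein that is tethered to myosin motors and set free when cells lose their attachment. Its control libraries had 5.12, 4.72 and 5.22 normalized CPM, and its C6-AQP1 libraries had 16.6, 18.6 and 19.1. The groups stood apart, with a 3.18-fold step between the nearest libraries. The log2 fold change was 1.86 (SE 0.08, edgeR adjusted p = 2.87e-15), or 3.64-fold, the largest of the 8 genes. In counts this rested on 114 to 267 reads per control library and 324 to 807 per C6-AQP1 library.

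Bid encodes the BH3-only protein that caspase 8 cuts to link death receptors to mitochondria. Its control libraries had 15.7, 14.8 and 15.7 normalized CPM, against 24.0, 23.9 and 21.6 in C6-AQP1. The C6-AQP1 libraries were again all higher, but by less than for Bcl2l11 and Bmf. The log2 fold change was 0.59 (SE 0.06, edgeR adjusted p = 1.03e-08). BID needs cleavage for full activity, which RNA counts do not show.

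The promoters of Bcl2l11 and Bmf are shown because these genes were the only DEGs among the 8 and because the study examined FOXO4, MAZ and E2F sites. Each line gives the 250 bases before a RefSeq start site, 5′ to 3′ on the gene's strand in build GRCr8. The files themselves were made on rn6, so no coordinate of theirs is used. Capitals mark matches, on either strand, to any of 8 motifs. For FOXO factors the letters searched were TTGTTT, the hexamer, or the core GTAAACA. For E2F factors they were TTTCGCGC, with a different centre also TTTGGCGC, and for MAZ they were GGGAGGGG. The remaining motifs were the E box with CACGTG, the AP-1 site with TGACTCA, and the box named by its letters CCAAT.
Bcl2l11, chr3:135819792-135820041, plus strand: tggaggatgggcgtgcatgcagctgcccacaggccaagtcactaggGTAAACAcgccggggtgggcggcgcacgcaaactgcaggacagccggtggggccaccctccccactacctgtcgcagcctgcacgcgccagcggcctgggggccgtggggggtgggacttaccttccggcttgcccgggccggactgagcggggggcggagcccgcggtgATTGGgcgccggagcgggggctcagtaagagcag
Bmf, chr3:125974065-125974314, minus strand: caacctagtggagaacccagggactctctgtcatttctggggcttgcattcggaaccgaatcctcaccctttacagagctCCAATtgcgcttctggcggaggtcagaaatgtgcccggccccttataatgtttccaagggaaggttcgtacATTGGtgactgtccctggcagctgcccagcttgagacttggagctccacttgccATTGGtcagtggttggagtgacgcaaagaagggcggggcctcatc

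The Bcl2l11 window held 1 GTAAACA, which begins 204 bases before the start, and 1 CCAAT box, read on the opposite strand. GTAAACA was found in 3.21% and CCAAT in 34% of 33469 such windows. The Bmf window held 3 CCAAT boxes and none of the FOXO, E2F or MAZ letters. The Bcl2l11 window was richer in G and C, at 72% with 22 CpG, than that of Bmf, at 55.2% with 8 CpG. The study took its sites from a gene enrichment analysis of its DEGs with the ToppGene suite. The search here was for exact letters in the 250 bases before a start, so presence or absence of letters does not check the study's sites. A match is a description of letters and not a bound site, and binding was not measured.

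Both effectors were lower in C6-AQP1 cells. Bax encodes the effector that moves from the cytosol to mitochondria when activated. Its control libraries had 53.3, 54.5 and 55.1 normalized CPM, and its C6-AQP1 libraries had 37.7, 36.2 and 36.2. All C6-AQP1 libraries were low, and the highest lay well under the lowest control. The log2 fold change was -0.57 (SE 0.04, edgeR adjusted p = 3.82e-12), so Bax stood 1.49-fold higher in control than in C6-AQP1 cells.

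Bak1 encodes BAK, the effector that sits in the mitochondrial membrane already before activation. It had 26.5, 25.7 and 26.1 normalized CPM in control and 23.4, 22.8 and 22.0 in C6-AQP1 libraries. The groups did not overlap, but the distance was small beside that of Bax. The log2 fold change was -0.20 (SE 0.05, edgeR adjusted p = 0.000849). Across all genes, 24.5% had a smaller absolute log2 fold change than Bak1 and 62.3% a smaller one than Bax.

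The 3 guardians differed in direction. Bcl2l1 encodes BCL-XL, a broad guardian that binds BAX, BAK and most BH3-only proteins. It had 176, 178 and 187 normalized CPM in control and 119, 123 and 123 in C6-AQP1 libraries. Every C6-AQP1 library was lower, and the log2 fold change was -0.57 (SE 0.03, edgeR adjusted p = 2.21e-14), or 1.48-fold higher in control cells. Bcl2l1 transcripts can also be spliced to BCL-XS, a short form that opposes BCL-XL, and the counts do not separate these forms.

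Bcl2, the founding guardian, which holds BIM, BMF and BAX, went the other way. Its control libraries had 3.72, 4.39 and 3.93 normalized CPM, and its C6-AQP1 libraries had 7.68, 6.78 and 7.23. All C6-AQP1 libraries lay above all controls. The log2 fold change was 0.83 (SE 0.11, edgeR adjusted p = 3.61e-07), or 1.78-fold. Counts were few, between 83 and 227 per control library and 150 to 306 per C6-AQP1 library, and its standard error was the largest of the 8 genes. With all libraries thinned by a random draw to the smallest total, its log2 fold change was 1.03 (SE 0.13), which would make it a DEG. The draw was not repeated.

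Bcl2l2 encodes BCL-W, a guardian known from neurons and the testis. It had 67.9, 71.7 and 71.1 normalized CPM in control and 76.2, 75.2 and 74.1 in C6-AQP1 libraries. The groups did not overlap, yet the step between the nearest libraries was only 1.03-fold. The log2 fold change was 0.09 (SE 0.03, edgeR adjusted p = 0.0119). Without replicate 1 of both groups it was 0.06 and no longer passed (adjusted p = 0.0827 from edgeR).

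**Figure D2:**
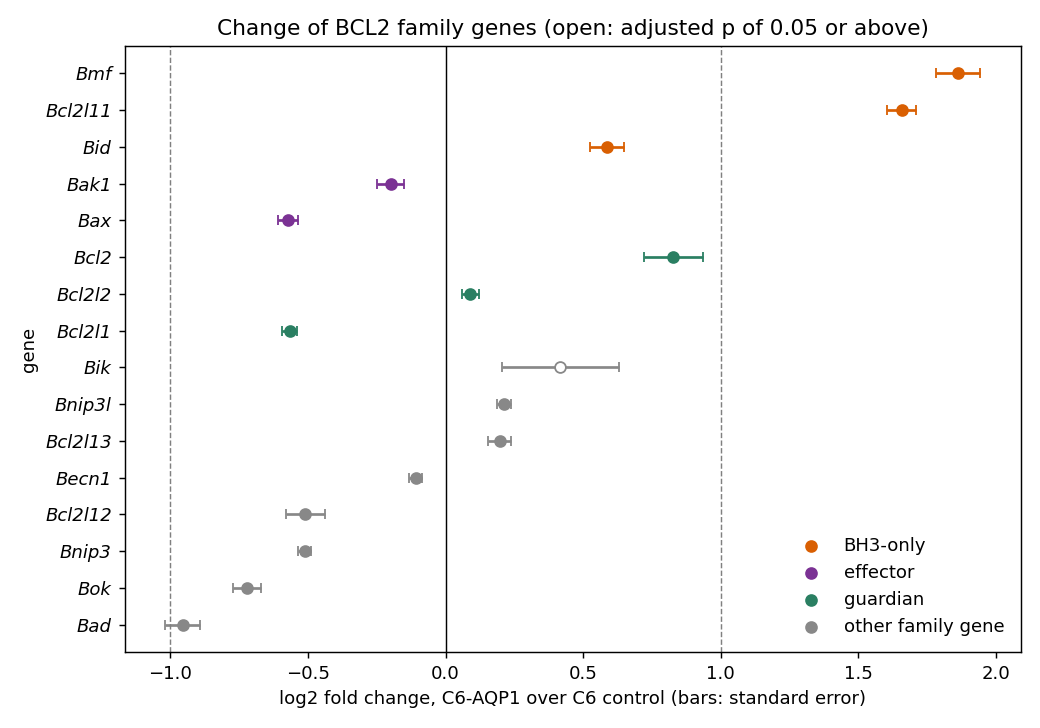
Log2 fold changes of the 8 BCL2 family genes and of 8 further genes of the family between C6-AQP1 and C6 control. Bars are standard errors, the open point did not pass, and dashed lines mark 2-fold. Only Bmf at 1.86 and Bcl2l11 at 1.66 lie beyond 2-fold, and Bad at -0.96 is the lowest.

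The classes were then set against each other inside each library, where a ratio of counts does not depend on scaling. The size of such a ratio depends on transcript lengths, so only its difference between groups is read. All 15 pairs of a guardian with an effector or a BH3-only gene among the 8 genes were compared. These pairs reuse the same genes, so they are not independent and largely restate the changes of single genes given above. In 13 of the 15 pairs the groups did not overlap. The same held for 81% of all pairs among the 11883 genes with counts in every library, a share near that of the 15 pairs. With 3 libraries against 3 the two-sided exact permutation test cannot go below p = 0.10. These 13 pairs reached that value, with an adjusted p of 0.115 over the 15 pairs, so no pair could pass 0.05.

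Against Bcl2l11, Bmf and Bid, guardian counts were lower in C6-AQP1 in 8 of 9 pairs, all 8 without overlap. The BH3-only gene Bad was not among the pairs, and no ratios to it were computed. Its log2 fold change of -0.96 was lower than that of any of the 3 guardians, which is the other direction. There were 13.3, 14.9 and 14.8 counts of Bcl2l1 for each count of Bcl2l11 in the control libraries, and 2.90, 3.09 and 3.24 in C6-AQP1. Every C6-AQP1 library was low, and the mean ratio was 4.65-fold higher in control cells. For Bcl2l1 to Bmf the ratios were 34.4, 37.8 and 35.8 in control and 7.19, 6.62 and 6.47 in C6-AQP1. This was the largest shift of the 15 pairs, 5.33-fold higher in control cells.

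Bcl2l2 to Bcl2l11 and Bcl2l2 to Bmf were 2.94-fold and 3.37-fold higher in control cells. Bcl2 itself rose, yet its ratios to both genes were lower in C6-AQP1. Bcl2 to Bcl2l11 was 1.74-fold higher in control cells, and Bcl2 to Bmf had a log2 change of -0.997. The exception was Bcl2 to Bid, with ratios of 0.236, 0.296 and 0.251 in control and 0.320, 0.284 and 0.334 in C6-AQP1. Here the groups overlapped (exact permutation p = 0.20, two-sided, adjusted p = 0.214, n = 3 per group).

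Against the effectors the picture was mixed. Bcl2 to Bax was 0.0699, 0.0806 and 0.0714 in control and 0.204, 0.188 and 0.20 in C6-AQP1, a 2.67-fold higher ratio in C6-AQP1. Bcl2 to Bak1 was 2.07-fold, Bcl2l2 to Bax 1.58-fold and Bcl2l2 to Bak1 1.23-fold higher in C6-AQP1. Bcl2l1 and Bax fell by like amounts. Their ratio was 3.30, 3.27 and 3.40 in control and 3.16, 3.40 and 3.41 in C6-AQP1, a log2 change of -0.00082 with overlapping groups. Leaving out each library in turn gave log2 changes from -0.020 to 0.035 for this pair. Bcl2l1 to Bak1 was 1.29-fold higher in control cells.

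**Figure D3:**
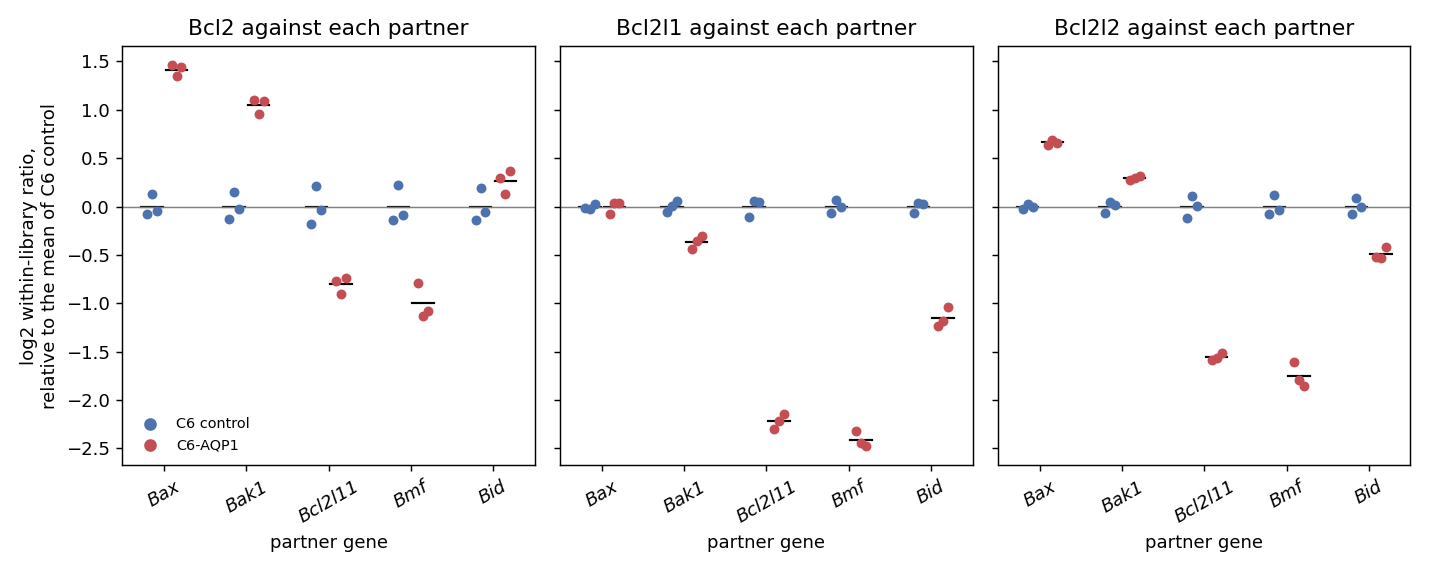
Log2 ratio of guardian to partner counts in each library, with the mean of the C6 control libraries of each pair set to 0. Points are libraries and black lines are means. Ratios to Bcl2l11 and Bmf lie below 0 in C6-AQP1 for all 3 guardians, down to -2.41 for Bcl2l1 to Bmf, while those to Bax are above 0 for Bcl2 and Bcl2l2 and near 0 for Bcl2l1.

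Beyond the 8 genes, more of the measured family fell than rose. Another 8 relatives were counted, of which 5 fell, 2 rose and 1 did not pass, with a median log2 fold change of -0.31. Bad, a BH3-only gene whose protein 14-3-3 proteins hold in check after growth factor signalling, had 24.5 ± 0.387 CPM in control and 12.5 ± 1.16 in C6-AQP1 cells (SD, n = 3). Its log2 fold change was -0.96 (SE 0.06, edgeR adjusted p = 6.73e-12). Bik, another BH3-only gene, had 1.10 ± 0.188 and 1.47 ± 0.197 CPM, a log2 fold change of 0.42 (SE 0.21, edgeR adjusted p = 0.0774). Bok, an effector-like gene, fell with a log2 fold change of -0.72.

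Bnip3 and Bnip3l, BH3-motif receptors of mitophagy, had log2 fold changes of -0.51 and 0.21. Becn1, an autophagy gene with a BH3 motif, had -0.11. The atypical members Bcl2l12 and Bcl2l13 had -0.51 and 0.20 on the same scale.

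Genes of the apoptosome, the caspases and mitochondrial release factors mostly fell. Of these 14 genes, 4 rose, 9 fell and 1 did not pass, with a median log2 fold change of -0.37. Cycs, cytochrome c, went from 244 ± 10.9 to 135 ± 2.08 CPM (SD, n = 3), a change of -0.85 on the log2 scale, though its processed pseudogenes may share reads. Diablo, which blocks IAP proteins, had -0.59, and the initiator Casp9, which the apoptosome activates, had -0.56. Casp2, a caspase of the stress response, rose with 0.77, and Apaf1, the scaffold of the apoptosome, with 0.24.

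The list of inhibitor of apoptosis genes also held Cflar, which is not a member of that family. Of its 6 measured genes, 4 rose, 1 fell and Cflar did not pass, with a median of 0.32. Xiap, the direct inhibitor of caspases, had a log2 fold change of 0.33, Birc3 0.66 and Birc6 0.64. Birc5, survivin, which also serves in mitosis, was the one that fell, at -1.18 (SE 0.04, edgeR adjusted p = 5.05e-17). In the death receptor pathway 7 genes were measured, of which 1 rose and 2 fell while 4 missed the bar, with a median of 0.13. Tnfrsf1a, a TNF receptor, had 0.26, and the adaptors Tradd and Fadd had -0.42 and -0.23.

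Of 9 mitochondrial partners, 8 fell and 1 rose, with a median of -0.44. Vdac2, a channel that holds BAK and BAX at the membrane, had a log2 fold change of -0.51, Vdac3 -0.81 and Mtch2, a receptor for cut BID, -0.62. Mff, a fission receptor, had -1.996 (SE 0.46, edgeR adjusted p = 0.0122), with 6.19, 5.37 and 4.50 CPM in control and 0.256, 1.79 and 1.49 in C6-AQP1 libraries. The low first value of C6-AQP1 came from 5 counts in the shallowest library.

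Among 15 genes that bind, tether or turn over these proteins, 8 rose and 7 fell, with a median of 0.056. The dynein light chains, known to tether BIM and BMF, went apart, with a log2 fold change of -0.65 for Dynll1 and 0.47 for Dynll2. The 14-3-3 gene Ywhaz had -0.68. Fbxw7, a ubiquitin ligase subunit that marks MCL1, had 0.96, and Pim1, a kinase that phosphorylates BAD, had 0.80. Dynll1 and Ywhaz have near-identical copies in the genome, so their counts are less certain.

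Of 17 transcription factors known to control the family, 11 rose, 3 fell and 3 did not pass, with a median of 0.54. Foxo3, a factor for Bcl2l11 and Bbc3, went from 15.7 ± 0.314 to 28.6 ± 1.29 CPM (SD, n = 3), a change of 0.88 on the log2 scale. Foxo1 and Foxo4 had 0.57 and 0.54, and the lowly counted Foxo6 had 1.49. Jun, which can drive Bcl2l11 under stress, had 1.88, Bcl6, a repressor, 1.23 and Ddit3, the stress factor CHOP, 0.95.

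These lists were not tested as sets, and the counts are to be read against the 40.8% and 40.7% of all genes that rose and fell.

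**Figure D4:**
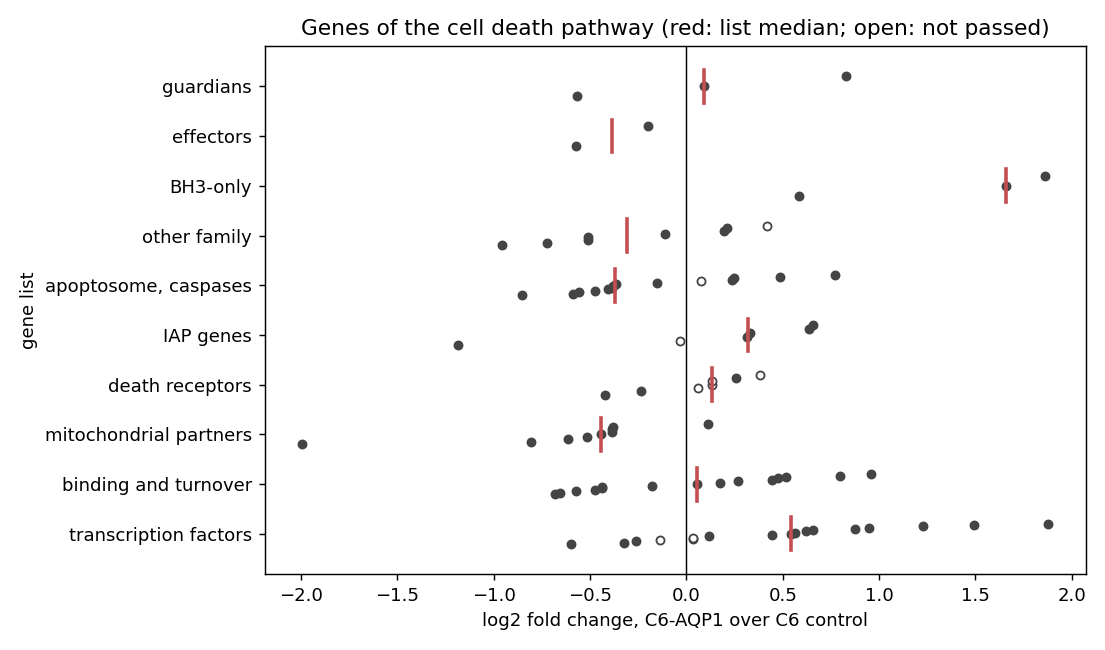
Log2 fold changes of the BCL2 family classes and of the other lists of the death pathway. Points are genes, open points did not pass, and red lines are list medians. The row of IAP genes includes Cflar, which is not of that family. The medians run from -0.44 for mitochondrial partners to 1.66 for Bcl2l11, Bmf and Bid, the row of BH3-only genes, which leaves out Bad.

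Some counts carry limits of their own. In RefSeq on GRCr8, Bcl2l11 overlaps Acoxl, Bcl2l1 overlaps a ribosomal pseudogene, Bcl2 overlaps 2 long noncoding RNA genes and Bak1 overlaps 1. No source used here states if the authors' counting used strand, so reads from overlapping stretches cannot be told apart. Bcl2l1 was the only one of the 8 genes with fractional counts, which RSEM gives where reads fit more than 1 gene.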

How the data were processed

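RNA-seq was done on 3 C6-AQP1 and 3 C6 control libraries. Per the methods and the processing notes, the authors ran FastQC (0.11.2) and Trimmomatic (0.36) on the reads, aligned with STAR (2.5.1b) against rn6, and estimated counts per gene in RSEM (1.2.29). The authors deposited expected counts, estimated and not normalized, for genes above a mean TPM threshold in a group. The sources used here do not name the annotation.

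Counts were rounded, scaled by TMM and compared with edgeR (4.0.16, quasi-likelihood, robust) in R (4.3.3) over all 12121 genes without covariates. Alternatives used DESeq2 (1.42.0), limma-voom (3.58.1), other scalings, a filter, a replicate block, thinning and left-out libraries. The steps were tested on simulated data. The biological coefficient of variation was 2.97%, and replicates differed beyond sampling noise (chi-square per degree of freedom 2.15 to 4.29). Totals were 19054244 to 52725870 counts.

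The members and lists were chosen with earlier results of these data known. Named were all members, every measured further family gene and up to 4 genes per other list with the largest change among those that passed without overlap. Apaf1, Dynll2, Foxo1, Foxo3 and Foxo4 were added after their values were seen. Some genes and 1 list are not reported here. Promoters came from RefSeq on GRCr8, which had 7 of the 8 members. Transcript lengths were not used.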

Additional observations from a re-analysis of the deposited data

How the results depend on the processing

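Over 15 alternatives, 119 of 120 member fold changes kept their direction and their side of an adjusted p of 0.05. The exception was Bcl2l2 without replicate 1 of both groups, at 0.06 on the log2 scale, which left 1 rising guardian in place of 2. The log2 fold changes ranged from 1.62 to 1.72 for Bcl2l11, 1.82 to 1.92 for Bmf, 0.75 to 1.03 for Bcl2, -0.58 to -0.51 for Bcl2l1 and -0.60 to -0.52 for Bax. The value of 1.03 for Bcl2 came from 1 random draw that thinned all libraries to 19054251 counts, and its SE was 0.13. With it 3 genes in place of 2 were DEGs. The draw was not repeated, and the cause was not tested. Scaling by library totals moved the median of all genes by 0.054 on the log2 scale. No ratio moved beyond its replicate spread when a library was left out, and only Bcl2l1 to Bax changed sign, around 0. The death receptor list had 4 rises in place of 1 with library totals and 3 with upper-quartile factors.

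Replicate numbers did not pair the libraries. Same-numbered libraries correlated in their deviations from the group means at 0.126, -0.0124 and 0.0651, so only the first pair was over 0.1. Of the C6-AQP1 libraries, replicates 1 and 3 correlated best with the control of their own number and replicate 2 with control replicate 3 (0.106). Of the controls, only replicate 1 correlated best with its own number, and both libraries numbered 1 were shallow. With the replicate number as a block, 5006 genes rose and 4976 fell, against 4948 and 4930, and the members kept 5 rises and 3 falls. Depth limits Bcl2 most, with 83 counts in its smallest library.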

Other observations

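RefSeq on GRCr8 gives Bcl2l1 several start sites, and the 250 bases before them differ in the motifs they hold. A window of Bcl2l1 held TTTCGCGC 218 bases and GGGAGGGG 235 bases before its start, read on the opposite strand. In 2 other windows, which overlap each other, the same TTGTTT was found, 184 and 49 bases before their starts. These letters occur in 0.248%, 10.5% and 18.1% of all windows, and a gene with several windows has more chances to hold any of them. The counts per gene do not say which start was used. Windows of Bcl2, Bcl2l2, Bak1 and Bid held none of the 8 motifs, which says only that these letters are not in these windows.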
